A study of Mus musculus with 6 samples.

Results

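Genes for lipopolysaccharide handling, complement and the acute phase were described in MCEC, a mouse cardiac endothelial cell line, with and without knockdown of Fat4, an atypical cadherin. The set holds 9 genes, found by their symbols in a table of 78317 genes: Lbp, Cd14, C3, C4b, Cfb, Serping1, Saa3, Lcn2 and Hp. The genes were selected on symbol, with their measured counts in knockdown against control libraries, this same comparison, already in view. Lbp in particular was already known to be lower in knockdown. The knockdown values of the 9 genes are therefore a description. Where their place against the all-gene threshold or a counting interval is given, it describes these libraries and nothing is concluded from it. The RNA libraries fall into a Fat4 knockdown group, whose genotype is given as ShFat4, and a control group, given as Wildtype, with 3 libraries each. The sources used here do not say whether control cells carried a control construct, or whether replicates were separate cultures or clones. The p-values therefore measure library-to-library spread, which may be technical. No inflammatory stimulus is named for either group.

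Acute-phase proteins are secreted in larger amounts during infection or injury, mainly by the liver, and several are also made by stromal and lining cells. Interleukin-6 acting through STAT3, interleukin-1 and tumour necrosis factor acting through NF-kappaB, and the C/EBP transcription factors are the textbook drivers of their genes. Complement is a chain of proteases in plasma and tissue that ends in the cleavage of C3 and the tagging or lysis of targets. LBP carries bacterial lipopolysaccharide to CD14, which hands it to the receptor formed by TLR4 and MD-2.

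Library totals ranged from 10305810 to 11870091 counts. Fat4 itself averaged 0.852 ± 0.115 CPM in knockdown and 1.83 ± 0.803 CPM in control libraries (SD, n = 3 each, log2 fold change -1.17, SE 0.35, edgeR adjusted p = 0.0330), where CPM is the count scaled to 1000000 per library after TMM adjustment of library sizes. The groups overlapped, since the lowest control value, 0.971 CPM in replicate 1, was under the highest knockdown value of 0.980 CPM. The call was lost in 7 of 15 other settings, namely 5 of 6 fits that left out 1 library, limma-voom, and GC and length correction. These 15 do not include DESeq2, which gave no adjusted p for Fat4, or the filter of 10 CPM, which left Fat4 out. Of 10 endothelial marker genes, 9 lay under 1 CPM and 5 (Vwf, Tie1, Erg, Cldn5 and Emcn) had no count in any library. The other, Egfl7, averaged 7.39 CPM in knockdown and 7.25 CPM in control libraries and passed the filter on low counts. All 10 mesothelial markers passed this filter and 0 lay under 1 CPM. Of these, Krt8, Krt18 and Muc16 were scarce. They averaged 1.64, 1.27 and 1.96 CPM in knockdown and 1.10, 1.14 and 2.37 CPM in control libraries. Markers of hepatocytes and neutrophils, common sources of acute-phase RNA, were near 0. The 8 hepatocyte markers summed to 0.136 to 0.318 CPM in knockdown and 0.331 to 0.437 CPM in control libraries, with Alb, Tat and Ahsg at 0. The 6 neutrophil markers summed to at most 0.0980 CPM in knockdown and 0.291 CPM in control libraries, with S100a9, Ly6g and Ltf at 0. The 9 macrophage markers summed to 3.92 to 4.90 CPM in knockdown and 3.89 to 5.44 CPM in control libraries, with 8 of the 9 under 1 CPM and Adgre1 at 0. Most of that sum was Cd68, at 3.66 CPM in knockdown and 3.52 CPM in control libraries on average.

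Among the 9 genes, Lbp was lower in every knockdown library than in any control library, C3 was the most abundant and lay at nearly the same mean in both groups, Saa3 and Cd14 were at a few CPM with overlapping groups, and C4b, Serping1, Hp, Lcn2 and Cfb were scarce or undetected. A filter on low counts (filterByExpr of edgeR) left 5 of the 9 genes among the 13372 genes tested: Lbp, Cd14, C3, C4b and Saa3. One of them, Lbp, lay past the threshold of an edgeR adjusted p under 0.05, which 17.4% of all tested genes passed, in either direction (8.44% lower and 8.94% higher in knockdown). Of these genes 1195 were higher and 1129 lower in knockdown, against 853 higher and 1740 lower with library-size scaling. Nothing is read from the place of Lbp past the threshold, because this contrast was used to choose the 9 genes. The median log2 fold change of the 5 was -0.03, beside -0.01 over all tested genes.

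Lbp (ENSMUSG00000016024, GRCm39 chromosome 2, exons spanning 158148413 to 158174772, plus strand) encodes the plasma protein that binds lipopolysaccharide. It stood at 9.91, 8.13 and 7.35 CPM in knockdown replicates 1, 2 and 3, against 14.6, 17.0 and 16.1 CPM in control replicates 1, 2 and 3. The highest knockdown library was below the lowest control library. The means were 8.46 ± 1.31 CPM in knockdown and 15.9 ± 1.25 CPM in control libraries (SD, n = 3 each), a log2 fold change of -0.91 (SE 0.12), that is 0.532-fold. In bulk RNA, fewer cells of a type and less RNA per cell cannot be told apart. These levels rest on 275 counts in knockdown and 541 counts in control libraries. Across 17 other settings, which changed scaling, filter, tool or correction or left out a library, the log2 fold change of Lbp stayed between -1.04 and -0.81. Of all tested genes, 0.546% had a lower log2 fold change than Lbp. The groups did not overlap in 34.9% of tested genes (17.5% with knockdown lower). Of the 5 genes tested here this held for Lbp alone, and of all 9 for Lbp, Serping1 and Hp. Serping1 and Hp did not pass the filter on low counts, so the shares of tested genes do not cover them. For Serping1 it held in CPM only, since knockdown replicate 3 and control replicate 1 had 3 counts each.

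**Figure D1:**
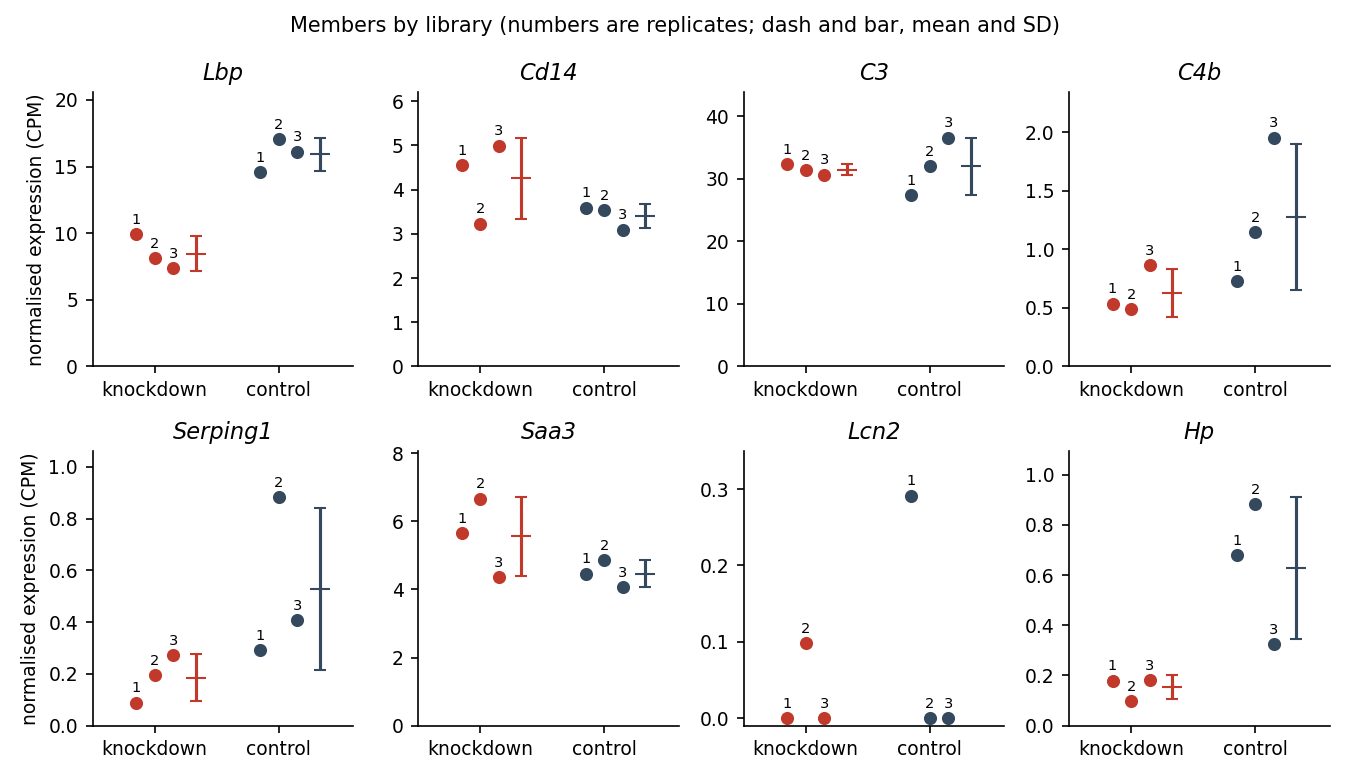
Normalised expression in CPM (vertical axes, each on its own linear scale) of the 8 genes with any count, with knockdown libraries on the left and control libraries on the right of each panel. Points are libraries numbered by replicate, and the dash and bar are the mean and SD of 3 libraries (not drawn for Lcn2, which had 4 counts in all). Lbp lies at 7.35 to 9.91 CPM in knockdown and 14.6 to 17.0 CPM in control libraries, while the C3 groups overlap around a mean of 31.4 CPM in knockdown and 32.0 CPM in control libraries.

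Cd14 (ENSMUSG00000051439, GRCm39 chromosome 18, 36858120 to 36859851, minus strand) encodes the co-receptor that takes lipopolysaccharide from LBP. Its values were 4.55, 3.23 and 4.99 CPM in knockdown replicates 1, 2 and 3, against 3.59, 3.53 and 3.09 CPM in control replicates 1, 2 and 3. Knockdown replicates 1 and 3 lay above every control library and knockdown replicate 2 among them. The log2 fold change was 0.33 (SE 0.19), and it ranged from 0.21 without knockdown replicate 3 to 0.49 without knockdown replicate 2. Its groups overlapped, unlike those of Lbp.

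C3 (ENSMUSG00000024164, GRCm39 chromosome 17, 57510970 to 57535136, minus strand) encodes the protein on which the complement pathways converge. It measured 32.3, 31.4 and 30.7 CPM in knockdown replicates 1, 2 and 3, against 27.4, 32.0 and 36.5 CPM in control replicates 1, 2 and 3. The knockdown libraries lay close together and inside the control range, with control replicate 1 lowest and control replicate 3 highest of the 6. The coefficient of variation was 2.63% in knockdown and 14.3% in control libraries. The log2 fold change was -0.03 (SE 0.09), and it was -0.12 when control replicate 1 was left out and 0.08 when control replicate 3 was, and it was 0.06 under GC and length correction with all libraries kept, so its sign was not settled.

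C4b (ENSMUSG00000073418, GRCm39 chromosome 17, 34947354 to 34962856, minus strand) encodes complement C4 of the classical and lectin pathways. Its deposited counts were 6, 5 and 9.5 in knockdown replicates 1, 2 and 3, against 7.5, 13 and 24 in control replicates 1, 2 and 3. Knockdown replicate 3 lay above control replicate 1, and control replicate 3 stood apart at 1.95 CPM. The log2 fold change was -1.02 (SE 0.40), and it was -0.58 without control replicate 3, so that 1 library sets much of its size. C4b shares most of its sequence with its neighbour C4a, whose counts were 19, 19 and 14.5 in knockdown replicates 1, 2 and 3, against 19.5, 12 and 16 in control replicates 1, 2 and 3. With the counts of both summed into 1 row the log2 fold change was -0.27 (SE 0.21). How reads were split between the copies was not tested, and the sum cannot show it, since adding the C4a counts changes the value either way. C4b just passed the filter on low counts, and it no longer did when counts were rounded down.

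Cfb (ENSMUSG00000090231, GRCm39 chromosome 17, 35075350 to 35081494, minus strand), the gene of the protease factor B of the alternative pathway, had 0 counts in all 6 libraries. At this depth a zero still leaves room for up to 3 counts, which covers counting error only. That is 0.253 to 0.291 per 1000000 of the library total before TMM adjustment, depending on the library. Its neighbour C2, the classical pathway counterpart of factor B, had 2, 3 and 1 counts in knockdown replicates 1, 2 and 3, against 3, 9 and 10 counts in control replicates 1, 2 and 3, too few for the test. C2 is named here after its values were seen.

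Serping1 (ENSMUSG00000023224, GRCm39 chromosome 2, 84595731 to 84605788, minus strand) encodes C1 inhibitor, which blocks the proteases C1r and C1s and plasma kallikrein. It had 1, 2 and 3 counts in knockdown replicates 1, 2 and 3, against 3, 10 and 5 counts in control replicates 1, 2 and 3. In CPM the highest knockdown library, at 0.272, was just under the lowest control library, at 0.291. The summed counts, 6 in knockdown and 18 in control libraries, give a ratio of 0.349 with a 95% interval of 0.113 to 0.916 (exact binomial, counting error only).

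Saa3 (ENSMUSG00000040026, GRCm39 chromosome 7, 46361422 to 46365124, minus strand) is a mouse serum amyloid A gene that is also transcribed outside the liver. Its values were 5.65, 6.66 and 4.36 CPM in knockdown replicates 1, 2 and 3, against 4.47, 4.86 and 4.07 CPM in control replicates 1, 2 and 3. Knockdown replicates 1 and 2 lay above every control library, and knockdown replicate 3 lay within the control range. The log2 fold change was 0.31 (SE 0.17), between 0.16 without knockdown replicate 2 and 0.46 without knockdown replicate 3. The related genes Saa1 and Saa2 had 0 counts in every library.

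Hp (ENSMUSG00000031722, GRCm39 chromosome 8, 110301760 to 110305804, minus strand) encodes haptoglobin, which captures free haemoglobin. It had 2, 1 and 2 counts in knockdown replicates 1, 2 and 3, against 7, 10 and 4 counts in control replicates 1, 2 and 3. No knockdown library reached the lowest control library. The summed counts, 5 in knockdown and 21 in control libraries, give a ratio of 0.249 with a 95% interval of 0.0733 to 0.678 (exact binomial, counting error only). Hp did not pass the filter on low counts.

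Lcn2 (ENSMUSG00000026822, GRCm39 chromosome 2, 32274645 to 32278264, minus strand), which encodes the iron-siderophore binding protein lipocalin-2, had 0, 1 and 0 counts in knockdown replicates 1, 2 and 3, against 3, 0 and 0 counts in control replicates 1, 2 and 3. The ratio of the summed counts was 0.349 with a 95% interval of 0.00664 to 4.34 (exact binomial, counting error only). The 4 counts are too few to describe a direction.

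**Figure D2:**
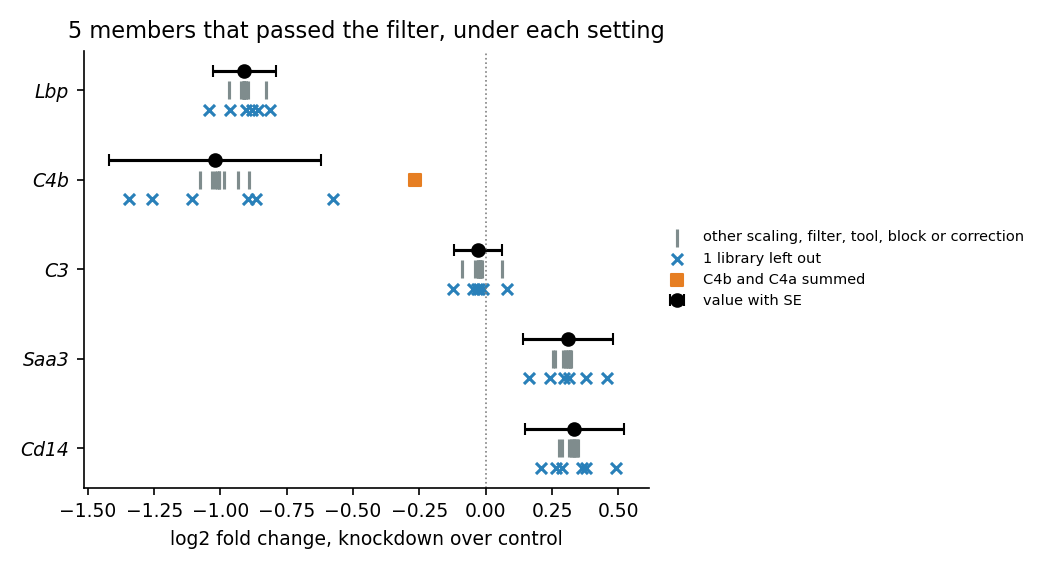
Log2 fold change of knockdown over control (horizontal axis) for the 5 genes that passed the filter on low counts. Black points are the reported values with their SE, grey ticks other settings, blue crosses fits without 1 library, and the orange square C4b with C4a added. Lbp stays between -1.04 and -0.81, whereas C4b moves from -1.02 to -0.27 once C4a is added.

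Levels of different genes were set side by side as CPM per kilobase of deposited exon length. The sources used here do not give how reads spread along transcripts, and this scale is approximate. C3 was highest, at 6.11 in knockdown and 6.22 in control libraries. Lbp stood at 1.75 ± 0.271 in knockdown and 3.29 ± 0.259 in control libraries, Cd14 at 2.46 ± 0.528 in knockdown and 1.97 ± 0.158 in control libraries, and Saa3 at 2.13 ± 0.444 in knockdown and 1.71 ± 0.151 in control libraries (SD, n = 3 each). In control libraries Lbp came second, its lowest library at 3.02 above the highest Cd14 library at 2.07. In knockdown libraries Lbp came after Cd14 and Saa3, with ranges that overlapped. Cd14 and Saa3 overlapped in both groups. Hp (0.0951 in knockdown, 0.392 in control), C4b (0.110 in knockdown, 0.224 in control) and Serping1 (0.0799 in knockdown, 0.227 in control) followed well below with overlapping library ranges, then Lcn2 and Cfb.

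The stretch before the transcription start was examined because C/EBP and NF-kappaB factors are known to act there on acute-phase genes. Of the 9 genes, 3 had an entry in the RefSeq promoter table (GRCm38.p6, a different build from the expression table): C3, Saa3 and Lcn2. The C3 and Saa3 stretches are shown because both genes were detected in every library. Each is the 250 bases before the start, written 5′ to 3′ on the gene's strand, with capitals marking the C/EBP word TTGCNNAA or its reverse complement.
C3, chr17:57228137-57228386, minus strand: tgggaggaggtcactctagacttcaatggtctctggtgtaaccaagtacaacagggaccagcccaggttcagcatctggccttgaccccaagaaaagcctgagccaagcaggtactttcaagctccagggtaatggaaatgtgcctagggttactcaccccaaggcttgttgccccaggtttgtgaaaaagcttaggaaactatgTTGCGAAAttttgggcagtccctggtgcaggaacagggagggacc
Saa3, chr7:46715677-46715926, minus strand: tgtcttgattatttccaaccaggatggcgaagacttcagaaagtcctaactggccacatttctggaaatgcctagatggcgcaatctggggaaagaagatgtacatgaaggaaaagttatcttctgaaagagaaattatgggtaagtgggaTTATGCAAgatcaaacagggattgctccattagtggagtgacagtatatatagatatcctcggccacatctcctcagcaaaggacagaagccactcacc

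The C/EBP word began 45 bases before the start in C3, 99 bases before it in Saa3 (as the reverse complement) and 216 bases before it in Lcn2. On either strand it was found in 9.56% of 32851 promoter entries of the same length. The looser NF-kappaB word, GGG and CC with 5 free bases between them, searched on both strands, matched at 4 places in C3, 2 of which overlap each other, at 1 place in Lcn2 and at none in Saa3, and it was found in 45.8% of all entries. It did not overlap the C/EBP word in C3. The STAT word TTCNNNGAA was in none of the 3, against 7.02% of all entries. The TATA word TATAAA, searched on the given strand, was in none of the 3, against 7.59% of all entries. These 4 words were all that were searched, and the capitals were limited to the C/EBP word once the matches were known. These matches describe letters and are not binding sites.

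Pathway genes around the 9 were taken from 11 lists of 169 genes, of which 57 had no count in any library and 77 passed the filter on low counts. Of these 77, 5 rose and 19 fell (edgeR adjusted p under 0.05). These 24 genes are 31.2% of the 77, where 17.4% of all tested genes passed (8.94% higher and 8.44% lower). The lists were chosen with earlier results of these data known, and near-identical gene copies count separately in them. Nothing is concluded from the difference between these shares. The 77 genes had a median log2 fold change of -0.09 against -0.01 over all tested genes. Each list below stands beside these same all-gene shares and this all-gene median. Under GC and length correction 7 rose and 12 fell, and without control replicate 2 the counts were 3 and 11.

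Genes of the classical pathway proteases fell. Of 18 classical and lectin pathway genes, 6 could be tested, of which 4 fell and 0 rose (median log2 fold change -0.57). C1ra, a copy of the C1r protease gene, stood at 10.6, 9.21 and 11.6 CPM in knockdown replicates 1, 2 and 3, against 15.7, 16.3 and 14.6 CPM in control replicates 1, 2 and 3 (log2 fold change -0.57, SE 0.11, edgeR adjusted p = 0.00260). Its second copy C1rb had 53.5, 52 and 56.5 counts in knockdown replicates 1, 2 and 3, against 87, 92.5 and 93.5 counts in control replicates 1, 2 and 3 (log2 fold change -0.69, edgeR adjusted p = 0.00239). The C1s protease copies C1s1 (-0.57) and C1s2 (-0.96) fell as well. In all 4 genes every knockdown library lay below every control library, as it did in 17.5% of all tested genes. The copies lie on chromosome 6 and are near-identical in pairs, so reads may have been split between them. With each pair summed, a setting chosen after seeing the data, the log2 fold change was -0.61 for C1r (edgeR adjusted p = 0.000547) and -0.68 for C1s (edgeR adjusted p = 0.00160). The call of C1s1 alone was lost without control replicate 2, knockdown replicate 1 or knockdown replicate 2. C4a and the scavenger receptor gene Colec12 were tested without passing the threshold, and the 3 C1q chain genes had 0 counts.

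Of 16 complement regulator genes, 4 could be tested, and 2 of them are described here. The membrane regulator gene Cr1l, known as Crry in rodents, averaged 29.0 ± 2.08 CPM in knockdown and 24.6 ± 2.52 CPM in control libraries (log2 fold change 0.24, edgeR adjusted p = 0.0757), and it passed only without control replicate 1. Clu, the clusterin gene, had a log2 fold change of -0.29 (edgeR adjusted p = 0.354). None of the 9 alternative and terminal pathway genes could be tested. Of 10 complement receptor genes, 2 were tested and neither passed: the C3a receptor gene C3ar1 (0.66, edgeR adjusted p = 0.179) and C1qbp (0.16, edgeR adjusted p = 0.0517), a mostly mitochondrial C1q-binding protein. C1qbp passed in 8 of 17 other settings, DESeq2 and limma-voom among them. Of 8 contact system and kinin genes, which C1 inhibitor also controls, none could be tested.

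In the lipopolysaccharide receptor pathway downstream of LBP and CD14, of 14 tested genes of 21, Irak2, a signalling kinase gene, rose and 0 fell (log2 fold change 0.44, edgeR adjusted p = 0.0251, median of the list 0.01). The call of Irak2 was lost by DESeq2 and in 5 of 6 fits without 1 library. The adaptor gene Tollip (0.04) and the kinase gene Irak1 (0.01), the most abundant of the list, averaged 48.5 and 38.2 CPM in knockdown and 47.3 and 38.0 CPM in control libraries. Tlr4, the lipopolysaccharide receptor gene, had a log2 fold change of -0.08 and Ly96, which encodes MD-2, of 0.49 (edgeR adjusted p = 0.779 and 0.0717). Both are named outside the rule for named genes, as the receptor of the pathway.

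Of 29 other acute-phase protein genes, 19 had no count in any library and 3 could be tested, of which 1 fell and 0 rose (median log2 fold change -0.33). Trf, the transferrin gene, stood at 88.0, 81.1 and 78.1 CPM in knockdown replicates 1, 2 and 3, against 103, 117 and 119 CPM in control replicates 1, 2 and 3 (log2 fold change -0.46, SE 0.07, edgeR adjusted p = 0.000758). Every knockdown library was below every control library. Transferrin is known in humans as a protein that falls in the acute phase. The pentraxin gene Ptx3 (0.29, edgeR adjusted p = 0.123) and the ceruloplasmin gene Cp (-0.33, edgeR adjusted p = 0.145) did not pass.

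Of 17 receptor, ligand and signalling genes of the interleukin-6 family, 15 were tested, 6 fell and 0 rose (median log2 fold change -0.20). Over all tested genes 8.44% fell and 8.94% rose. The feedback inhibitor gene Socs3, itself a STAT3 target, averaged 20.3 ± 1.01 CPM in knockdown and 27.4 ± 0.649 CPM in control libraries (SD, n = 3 each, log2 fold change -0.43, edgeR adjusted p = 0.00224). The ligand gene Clcf1 (-0.33), the oncostatin M receptor gene Osmr (-0.28) and Il6st (-0.27), which encodes the shared receptor chain gp130, fell as well. The call of Il6st was lost in 4 of 6 fits without 1 library and under GC and length correction, and that of Osmr without control replicate 2. Lifr (-0.33) and Stat3 (-0.23) were the others. The count was 2 without control replicate 2, 3 without control replicate 3, 3 without knockdown replicate 1 and 3 under GC and length correction. Il6 itself, with 21 counts in knockdown and 22 in control libraries, could not be tested.

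Among 14 genes of interleukin-1, interleukin-17 and tumour necrosis factor input, 10 were tested, 1 rose and 3 fell (median log2 fold change -0.18). The all-gene shares were 8.94% higher and 8.44% lower. Il1rn, which encodes the interleukin-1 receptor antagonist, had 26, 24 and 28 counts in knockdown replicates 1, 2 and 3, against 6, 17 and 8 counts in control replicates 1, 2 and 3. All knockdown libraries were above all control libraries (log2 fold change 1.38, SE 0.31, edgeR adjusted p = 0.00635). The receptor genes Tnfrsf1a (-0.31), Il17rc (-0.34) and Tnfrsf1b (-0.37) fell, and the calls of Il17rc and Tnfrsf1b were each lost in 4 of 6 fits without 1 library, by DESeq2 and under GC and length correction. The call of Tnfrsf1b was lost in 11 of 17 other settings, RLE and upper-quartile scaling and limma-voom among them. The number that fell was 1 without control replicate 2, control replicate 3, knockdown replicate 2 or knockdown replicate 3, and 1 by DESeq2 and under GC and length correction. DESeq2 gave no adjusted p for Il1rn. The Tnfrsf1b groups overlapped, and its adjusted p was 0.0463, against 0.0559 without robust estimation of the dispersion. Il1a, Il1b and Tnf had 0 counts.

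Of 14 tested transcription factor genes of the acute phase, 2 rose and 3 fell (median log2 fold change -0.02), where 8.94% of all tested genes rose and 8.44% fell. Cebpd, a C/EBP factor induced in the acute phase, stood at 55.2, 53.3 and 53.4 CPM in knockdown replicates 1, 2 and 3, against 76.2, 79.0 and 80.2 CPM in control replicates 1, 2 and 3. The groups lay far apart (log2 fold change -0.54, SE 0.06, edgeR adjusted p = 5.23e-05). Cebpb fell by 0.25 on the log2 scale, a call lost in 4 of 6 fits without 1 library and under GC and length correction. Bcl3 (-0.44) fell, while Nfkbia (0.32), the NF-kappaB inhibitor gene, and Nfkb2 (0.21) rose. Of 9 tested genes of iron and haem handling, 1 rose and 1 fell (median log2 fold change -0.06), beside the same all-gene shares. The transferrin receptor gene Tfrc (0.30) rose and Lrp1 (-0.26), a receptor gene for haem bound to haemopexin, fell. The value of Lrp1 turned to 0.01 under GC and length correction, and its call was also lost by DESeq2 and without control replicate 3, knockdown replicate 1 or knockdown replicate 2.

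Some mesothelial markers moved in the same libraries. Of 10, 4 fell (Upk3b, Lrrn4, Wt1 and Gpm6a) and 0 rose, where 8.44% of all tested genes fell and 8.94% rose. Among those not called were Upk1b (log2 fold change 0.001), the most abundant of the 10, Msln (-0.09) and Krt8 (0.58). The 10 summed to 1589 to 1648 CPM in knockdown and 1815 to 1916 CPM in control libraries. Upk3b alone averaged 420 CPM in knockdown and 563 CPM in control libraries. Of 8 fibroblast markers, 6 were tested, Col1a1 and Col3a1 fell and Thy1 rose. Without passing, Dcn (log2 fold change 0.18) was higher and Pdgfra (-0.47) lower in every knockdown library than in any control library. The 8 summed to 1792 to 1956 CPM in knockdown and 2393 to 2477 CPM in control libraries. Most of that sum was Col1a1, at 1513 CPM in knockdown and 1964 CPM in control libraries on average. Col3a1 averaged 238 CPM in knockdown and 370 CPM in control libraries. The part of either marker group in the values of Lbp and the C1 protease genes was not tested.

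**Figure D3:**
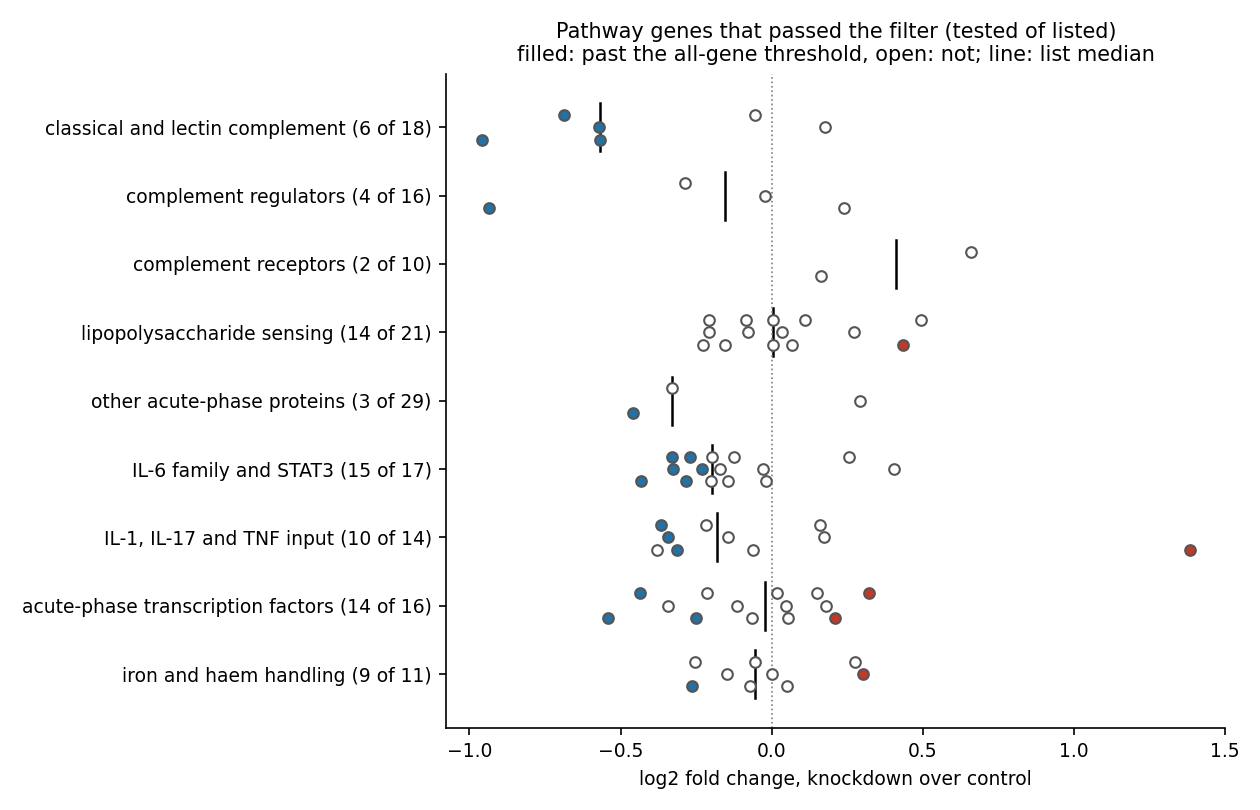
Log2 fold change of knockdown over control (horizontal axis) of the 77 pathway genes that passed the filter, by list, with the number tested of the number listed beside each name. Filled points passed the edgeR adjusted p of 0.05 (red higher, blue lower in knockdown), open points did not, and black lines are list medians. The 4 C1 protease genes lie at -0.57 to -0.96, and Il1rn at 1.38 lies farthest to the right.

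Genes whose pattern over the 6 libraries was nearest to that of each more abundant gene were sought among 8051 tested genes with at least 10 CPM on average, by the root mean square difference of log2(CPM + 0.5) after centring on each gene's mean. That the genes found share a pattern follows from this choice, and nothing is concluded from it. For Lbp the nearest genes were Cemip (difference 0.116), Rasl11a (0.124) and Ephb2 (0.126). Cemip averaged 22.5 ± 0.686 CPM in knockdown and 40.9 ± 1.06 CPM in control libraries, and Rasl11a 29.0 ± 3.73 CPM in knockdown and 46.8 ± 0.126 CPM in control libraries. For C3 they were Prdm4 (0.0302), Pan2 (0.0328) and Borcs7 (0.0360), each lowest in control replicate 1 and highest in control replicate 3. For Cd14 they were Mpp1, Pcnx4 and Rbm4b (0.0688 to 0.0935), each highest in knockdown replicates 1 and 3. For Saa3 they were Thumpd3, Crls1 and Vrk2 (0.0450 to 0.0617), each highest in knockdown replicate 2.

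**Figure D4:**
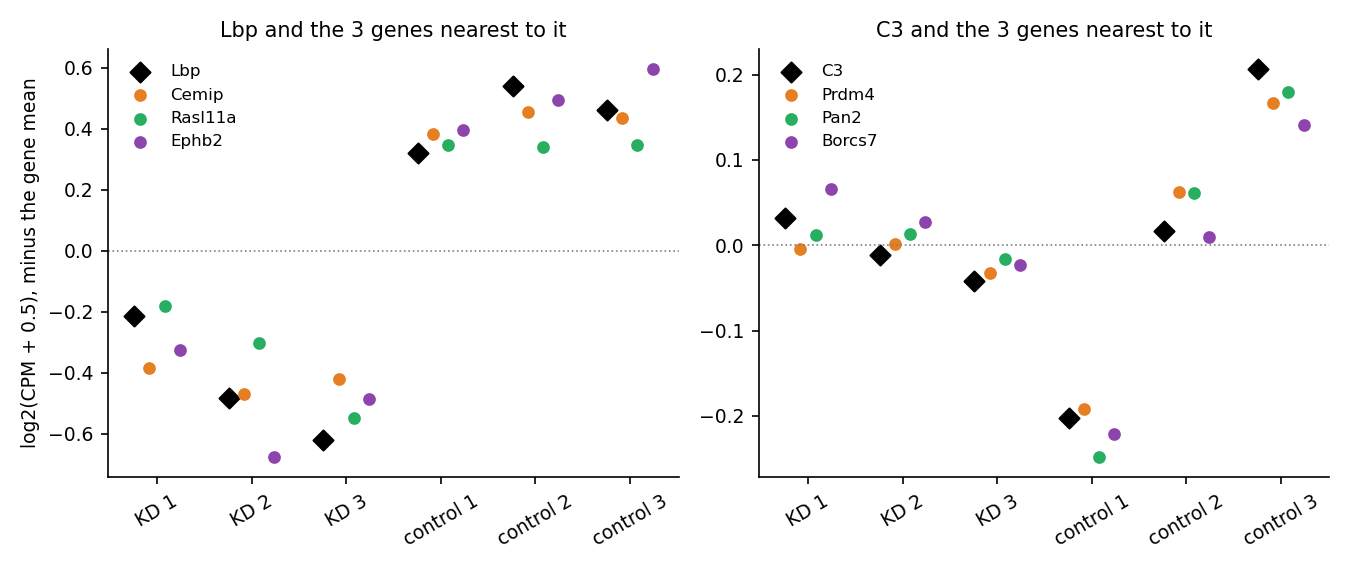
Log2(CPM + 0.5) minus the gene's own mean (vertical axis) in each library (horizontal axis, KD for knockdown), for Lbp on the left and C3 on the right, each as black diamonds with its 3 nearest genes as coloured circles. Lbp and its nearest genes split by group, while C3 and its nearest genes are lowest in control replicate 1 and highest in control replicate 3. The likeness follows from how the nearest genes were picked.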

How the data were processed

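RNA of MCEC cells was sequenced in 3 Fat4 knockdown and 3 control libraries. The authors deposited 1 table of estimated counts per gene, with CPM (count scaled to a library total of 1000000) beside them. Per the submitters' processing notes, reads were handled with STAR 2.7.11 on GRCm39, with fastp 0.24.0 and SAMtools 1.22.1 also listed, and FastQC 0.12.1 and MultiQC 1.32 as further tools. The sources used here do not give the counter or its strand setting. Of the nonzero deposited counts 29.0% were not whole (tolerance 1e-06), and counts were rounded for the tests. Of 78409 rows, 92 spike-in rows were left out. The deposited CPM was not used in tests. CPM printed here was recomputed from deposited counts over TMM-scaled library sizes.

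Genes passing filterByExpr (13372) were fitted in R 4.3.3 by edgeR 4.0.16 (glmQLFit and glmQLFTest), with robust dispersion estimation and Benjamini-Hochberg adjustment over all of them. Robust estimation was chosen after results without it had been seen, including those of the genes described, because it gave the number of changed genes known from an earlier account of these data. SE is the log2 fold change over the square root of F. The script was tested on simulated data. For genes under the filter, summed rounded counts were compared as a ratio over effective library sizes with an exact binomial 95% interval. A count of 0 allows up to 3 counts. Alternatives were other scalings, filters and roundings, DESeq2 1.42.0, limma-voom (limma 3.58.1), a replicate block, each library left out, summed paralogs, and a correction for GC content and length (mgcv 1.9-3, GC known for 95.6% of tested genes).

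The 9 genes and the pathway lists were chosen with earlier results of these data known. Named from each list were up to 4 genes past the threshold with the smallest adjusted p, and the 2 most abundant tested genes where fewer than 2 passed. Named as nearest in pattern were the 3 closest genes with at least 10 CPM, for each of the 9 that passed the filter and averaged at least 1 CPM. One gene that this rule names is not reported here.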

Additional observations from a re-analysis of the deposited data

How the results depend on the processing

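The number of genes past the threshold, 2324, was 1498 by DESeq2 and ranged from 1029 to 3077 when 1 library was left out. It was 2242 without robust estimation, a setting added after seeing the data, under which 23 pathway genes in place of 24 passed. Of the 9 genes 1 (Lbp) was past the threshold. This became 2 with no filter on low counts (Hp), and it ranged from 1 to 2 when 1 library was left out, the other gene being C4b without control replicate 1. Pathway genes past the threshold ranged from 14 to 28 when 1 library was left out. C4b summed with C4a gave -0.27 on the log2 scale in place of -1.02, and the log2 fold change of Lrp1 turned to 0.011 under GC and length correction. In all, 593 recomputed values were labelled unchanged, 49 calls of named genes were lost and 10 were gained, 10 values or counts moved and 1 turned its direction. Unchanged meant the same side of the threshold for named pathway genes and Fat4. For the 9 genes it meant a value within the replicate spread, or within the counting interval for genes under the filter. Counts of genes were allowed a wider fixed ratio, so that 3077 in place of 2324 was labelled unchanged. Except where a value is given by the construction of the alternative (fewer genes or libraries, or copies summed), the cause was not tested. With the replicate number as a block 2001 genes, 1 of the 9 and 23 pathway genes passed, and the calls of Il17rc and Tnfrsf1b were lost. Same-numbered libraries deviated from their group means with correlations of -0.20, -0.16 and 0.14 over 8668 genes, so the numbers were not taken to pair the libraries. Depth limits Serping1, Hp, Lcn2 and Cfb, which had few or no counts.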
